A study of Mus musculus with 12 samples.

Results

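Glutathione S-transferases join the thiol of glutathione to reactive, electron-poor molecules, and so clear peroxidation products, drugs and other toxic compounds. The cytosolic enzymes fall into classes named by Greek letters (pi, mu, alpha, theta, omega), and a separate family sits in membranes and takes part in leukotriene synthesis and peroxide reduction. Many of these genes are switched on by NRF2, a transcription factor that binds antioxidant response elements together with small Maf proteins and is held back by KEAP1. In blood stem cells, glutathione and its enzymes are known as part of the defence against reactive oxygen species.

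The 10 genes described here are Gstp1 and Gstp2 (pi class), Gstm1 and Gstm5 (mu), Gsta4 (alpha), Gstt1 and Gstt2 (theta), Gsto1 (omega), and the membrane-bound Mgst1 and Mgst2. They were taken by symbol from the 24054 genes of the deposited tables, and all 10 were found. They had been proposed with their normalised read counts (CPM) in these same libraries known. Their values and calls are therefore given as a description, without p-values. They are a selection from a larger family: 20 further genes of the tables, transferases and relatives such as Alox5ap, serve below as a separate list.

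The libraries, 12 in all and 3 in each of 4 groups, came from blood-forming cells sorted out of mouse fetal livers at E13.5. LT-HSC (long-term haematopoietic stem cells) were sorted as LSK cells with the surface markers CD150+ and CD48-, at 500 to 1000 cells per sample, and MPP (multipotent progenitors) as LSK cells that were CD150- and CD48+, at 20000 cells per sample. LSK stands for lineage-negative, Sca-1-positive, c-Kit-positive, the phenotype of early blood cells. The mutants were Setdb1 p/p;vav-cre. Setdb1 encodes a methyltransferase that silences chromatin through methylation of histone H3, and vav-cre drives the Cre recombinase in cells of the blood lineage. The sources used here do not describe the p allele. The controls were of mixed genotype. The Cre-free genotype Setdb1 +/p;+/+ was that of LT-HSC control 1 and of the first 2 MPP controls, and Setdb1 +/p;vav-cre that of the remaining 2 LT-HSC controls and of MPP control 3. Every library, control or mutant, thus carried at least 1 p allele. No source states whether libraries of a group came from separate fetuses. The spread on which p-values rest is that of these libraries and may be technical.

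The libraries held 10119416 to 14113198 expected counts. Setdb1 RNA ranged from 73.4 to 108 CPM in LT-HSC controls and from 66.3 to 80.1 CPM in LT-HSC mutants, and from 87.9 to 141 CPM in MPP controls and from 86.6 to 117 CPM in MPP mutants. The groups overlapped in both cell types (log2 fold change -0.27, SE 0.17, and -0.12, SE 0.17; edgeR quasi-likelihood adjusted p = 0.651 and 0.598), so the gene's total RNA does not check the genotype labels. The sort markers followed the labels: Slamf1, which encodes CD150, was at 36.8 ± 1.88 CPM in LT-HSC controls and 1.80 ± 0.556 CPM in MPP controls, and Cd48 at 14.5 ± 3.19 and 229 ± 29.1 CPM (SD, n = 3). Some libraries stood apart in markers of other liver cells. The summed hepatoblast markers were lower in LT-HSC control 1 (564 CPM) than in controls 2 and 3 (1924 and 1953 CPM), and the summed macrophage markers were higher in LT-HSC mutant 2 (2131 CPM) than in mutants 1 and 3 (624 and 712 CPM).

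The pi-class pair is shown in sequence first, because both genes carry the largest differences below and are close copies of each other. Gstp1 lies on the minus strand of chromosome 19 at chr19:4035411-4037912 (GRCm38, the mm10 build) and Gstp2 on the same strand at chr19:4040288-4042221, with 2376 bases between them. Their coding parts have the same length, 630 bases without the stop codon, and differ at 12 of them (98.1% identity), and the longest stretch without a difference is 300 bases. Coding bases 241 to 330, in coding exon 5, hold 6 of the 12 differences and are printed below 5′ to 3′ from the GENCODE M21 transcripts, with the differing bases in capitals. The Gstp1 window is chr19:4036694-4036783 and the Gstp2 window chr19:4040988-4041077, both on the minus strand.
Gstp1 coding window: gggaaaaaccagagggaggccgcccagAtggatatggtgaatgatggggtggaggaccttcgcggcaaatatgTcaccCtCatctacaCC
Gstp2 coding window: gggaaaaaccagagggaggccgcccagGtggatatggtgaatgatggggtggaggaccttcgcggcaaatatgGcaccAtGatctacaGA
Of all 50-base windows of the Gstp1 transcript, 62.3% occur unchanged in the Gstp2 transcript, and 64.3% the other way round. The expected counts split a read between genes it fits equally well. Gstp1 and Gstp2 had fractional counts in 12 of 12 libraries, and so did Gstm5, while Gstm1 had them in 9 of 12 and the other 6 genes in none. The level of each pi-class gene is therefore an estimate that depends on that split, and the sum of the pair is given beside it.

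The promoters are printed because the pair moved together between the genotypes, and Gstm5 joined it in one cell type. RefSeq (GRCm38.p6) gave promoter windows, from 250 bases before to 50 bases after the start of transcription, for 8 of the 10 genes. The windows of Gstp1 and Gstp2 are identical at 246 of 300 aligned bases (82%). Both strands were searched for TGACTCA, the core bound by AP-1 and NF-E2 proteins, and for TGACNNNGC, the core of the antioxidant response element. Matches are in capitals, and a match of the first motif on the opposite strand reads TGAGTCA.
Gstp1 promoter, chr19:4037863-4038162, minus strand: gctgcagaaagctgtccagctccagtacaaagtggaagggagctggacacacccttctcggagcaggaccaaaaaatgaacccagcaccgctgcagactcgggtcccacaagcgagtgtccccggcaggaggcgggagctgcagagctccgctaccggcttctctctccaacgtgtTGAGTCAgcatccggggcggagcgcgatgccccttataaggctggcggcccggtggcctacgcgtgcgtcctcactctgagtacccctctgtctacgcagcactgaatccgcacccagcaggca
Gstp2 promoter, chr19:4042172-4042471, minus strand: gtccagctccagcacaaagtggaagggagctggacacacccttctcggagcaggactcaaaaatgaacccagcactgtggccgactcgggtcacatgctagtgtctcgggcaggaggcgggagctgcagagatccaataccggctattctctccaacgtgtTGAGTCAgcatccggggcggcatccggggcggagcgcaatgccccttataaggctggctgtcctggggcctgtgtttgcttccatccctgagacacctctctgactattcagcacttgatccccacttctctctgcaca
Gstm5 promoter, chr3:107895604-107895903, plus strand: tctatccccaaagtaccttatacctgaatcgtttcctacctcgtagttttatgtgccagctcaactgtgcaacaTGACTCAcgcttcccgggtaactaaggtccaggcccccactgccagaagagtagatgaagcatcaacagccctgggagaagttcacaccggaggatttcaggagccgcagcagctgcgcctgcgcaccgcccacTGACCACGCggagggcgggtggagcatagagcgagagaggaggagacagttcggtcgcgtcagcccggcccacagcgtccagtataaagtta
TGACTCA was found in the windows of 4 genes, beginning at -74 from the start in Gstp1, -89 in Gstp2, -176 in Gstm5 and -52 in Mgst2. TGACNNNGC was found in 2, at -42 in Gstm5 and -56 in Mgst1. In Gstp1 and Gstp2 the TGAGTCA match continues as TGAGTCAGC, which departs from TGACNNNGC only by a G in place of the C. That form was not searched for, so the search does not show that these windows lack an antioxidant response element. Among all 32851 mouse promoter windows of this length, 5.20% hold the first motif and 12.4% the second, so the second is common by letters alone. The Gstp1, Gstp2 and Gstm5 windows hold 20, 12 and 18 CpG dinucleotides, beside a median of 7 over all windows. The windows of Gsto1 (16) and one each of Gstm1 (14) and Mgst1 (13) hold more than that of Gstp2. These are matches of letters and say nothing of what is bound in these cells.

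Gstp1, the main pi-class enzyme, was higher in all 6 mutant libraries than in all 6 controls. The LT-HSC controls 1 to 3 had 207, 218 and 209 CPM, and the LT-HSC mutants 616, 563 and 824 CPM. The MPP controls had 250.1, 234 and 226 CPM, and the MPP mutants 826, 1044 and 982 CPM. The control libraries lay close together and the mutant libraries spread more widely, with no overlap in either cell type. The means were 211 ± 6.16 and 668 ± 138 CPM in LT-HSC, a 3.25-fold difference (log2 1.70, SE 0.15). In MPP they were 237 ± 12.2 and 951 ± 112 CPM, a 3.97-fold difference (log2 1.99, SE 0.10; SD, n = 3 throughout).

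Gstp2 started from a far lower level and differed more. Its LT-HSC values were 4.71, 5.77 and 6.81 CPM in controls and 52.6, 74.6 and 139.8 CPM in mutants. Its MPP values were 6.22, 5.86 and 4.36 CPM in controls and 92.6, 187 and 184 CPM in mutants. Again no mutant library reached down to a control, and mutant 1 was the lowest mutant in both cell types. The means were 5.76 ± 1.05 and 89.0 ± 45.3 CPM in LT-HSC (15.9-fold, log2 4.0, SE 0.40) and 5.48 ± 0.988 and 155 ± 53.7 CPM in MPP (27.8-fold, log2 4.8, SE 0.27). With the counts of both genes added into 1 feature, the pair was higher by log2 1.84 in LT-HSC and 2.17 in MPP. Since Gstp1 makes up most of that sum, it does not show how far the Gstp2 difference depends on the split of reads, which was not tested.

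**Figure D1:**
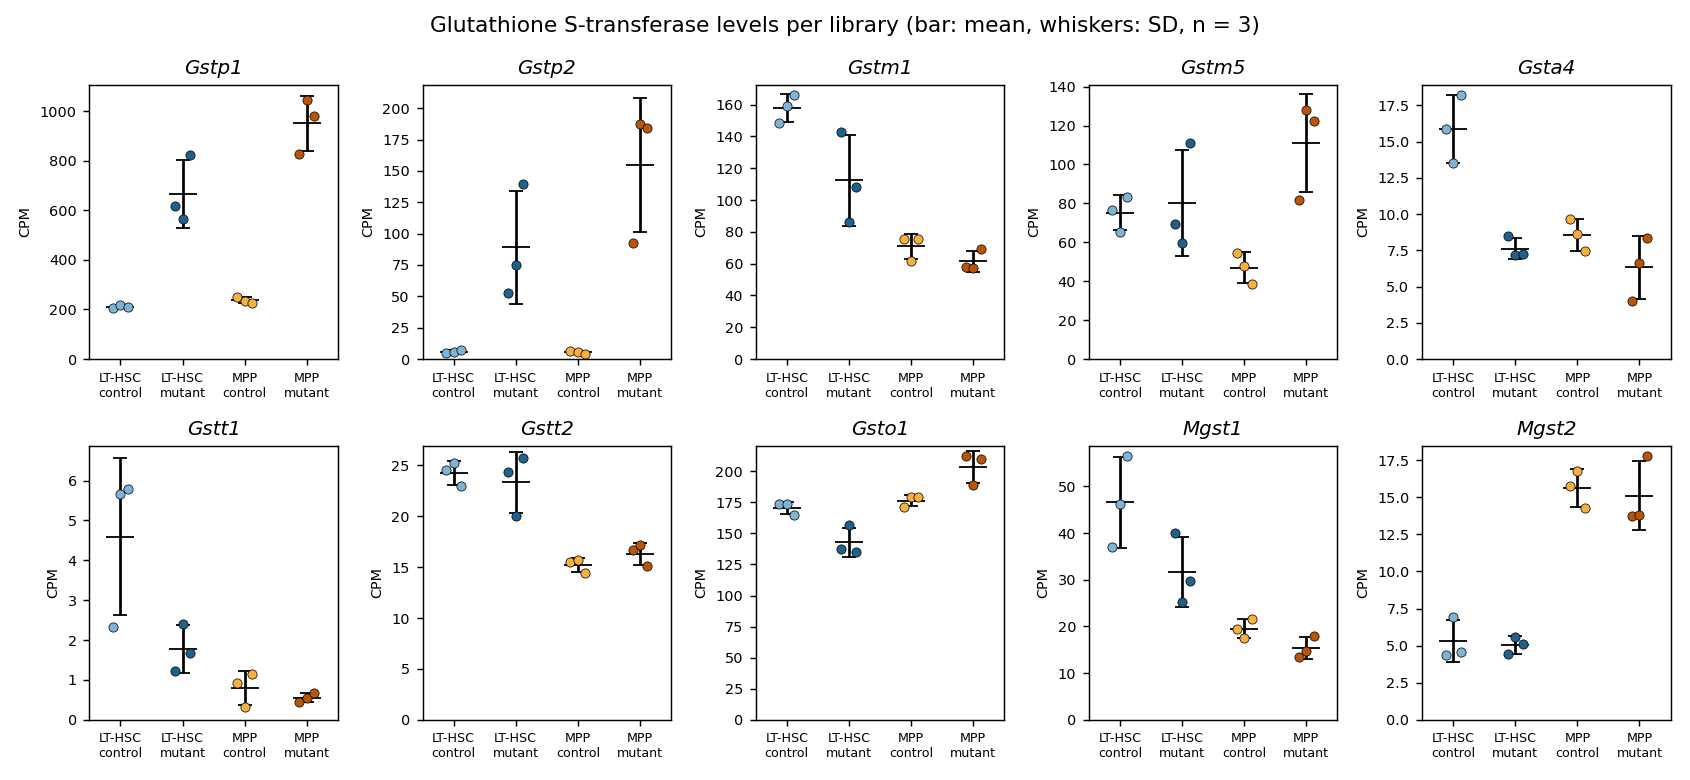
Level of each of the 10 transferase genes in every library (points, CPM on linear axes from 0), with the group mean (horizontal bar) and SD (whiskers, n = 3). Gstp1 and Gstp2 separate all mutants from all controls in both cell types, and Gstm5 does so in MPP. Gstm1, Gstt1, Gstt2, Mgst1 and Mgst2 separate all LT-HSC from all MPP libraries, with Mgst2 higher in MPP and the others higher in LT-HSC.

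A gene counts as called where its adjusted p was under 0.05 over all genes tested (edgeR quasi-likelihood, Benjamini-Hochberg). In LT-HSC, 2 of the 10 genes were called, Gstp1 and Gstp2, both higher. Of the 12847 genes tested there, 0.257% were called higher and 0.42% in either direction, and 6.52% had all mutants above all controls. In MPP, 3 of the 9 genes that passed the filter on low counts were called, Gstp1, Gstp2 and Gstm5, all higher, where 16.5% of 12392 genes were called higher and 35% in either direction. With Gsto1, 4 of the 10 had all MPP mutants above all MPP controls, as did 25.4% of the genes tested. Since the genes were chosen on these values, nothing is read from the comparison of these shares. The LT-HSC calls rest on few libraries: without control 1 or without control 3 neither gene was called (Gstp1 at log2 1.68 and 1.69, Gstp2 at 3.86 and 4.13), and without control 2 Gstp2 was not (log2 4.0). The calls over all genes dropped as well, from 54 to 14, 15 and 13 without control 1, 2 or 3. Without mutant 2, the library with high macrophage markers, the differences were 1.78 and 4.08.

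Among the pi-class reads, the share assigned to Gstp2 also differed between genotypes. It was 2.23%, 2.58% and 3.16% of the summed Gstp1 and Gstp2 expected counts in LT-HSC controls and 7.87%, 11.7% and 14.5% in LT-HSC mutants. In MPP it was 2.43%, 2.44% and 1.89% in controls and 10.1%, 15.2% and 15.8% in mutants. The controls of both cell types thus lay together near the bottom and the mutants did not overlap them. The 95% Wilson intervals, which cover counting error only, reached no higher than 3.88% in any control and no lower than 7.30% in any mutant. They take each expected count as a read of known origin, so the uncertainty of the split is not in them. Means were 2.65% ± 0.469 against 11.4% ± 3.33 in LT-HSC and 2.25% ± 0.313 against 13.7% ± 3.14 in MPP.

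**Figure D2:**
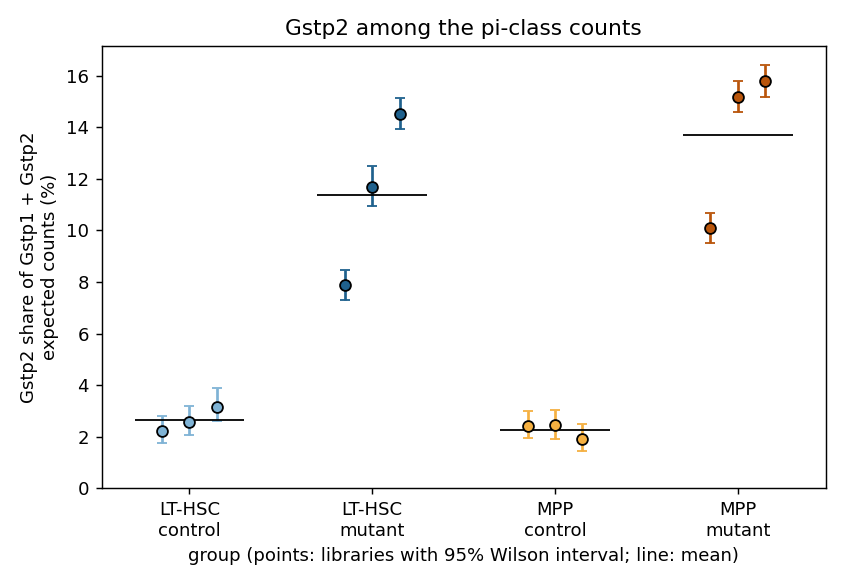
Gstp2 as a percent of the summed Gstp1 and Gstp2 expected counts in each library (points), with the group mean (line). Whiskers are 95% Wilson intervals for counting error, without the uncertainty of the split of reads. Controls lie between 1.89% and 3.16%, and mutants between 7.87% and 15.8%.

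Of the mu class, Gstm5 was higher in mutant MPP and overlapped between the genotypes in LT-HSC. The gene lies at chr3:107895854-107898685, plus strand. MPP controls stood at 54.5, 47.6 and 38.6 CPM and MPP mutants at 81.9, 128 and 122 CPM, without overlap. The means of 46.9 ± 7.96 and 111 ± 25.2 CPM differ 2.34-fold (log2 1.22, SE 0.17). In LT-HSC the controls (76.8, 65.3 and 83.1 CPM) and mutants (69.6, 59.8 and 111 CPM) overlapped, and mutant 3 alone was above every control. The LT-HSC difference was log2 0.14 (SE 0.23), and -0.18 without mutant 3. The MPP difference had the same direction against the single MPP control that carried Cre (log2 1.47 in a joint fit of both cell types without the Cre-free controls), but there it was not called. That arm has 1 library, which is assumed to vary like the other groups.

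The Gstm5 gene shares 360 bases with 4933431E20Rik, a long noncoding RNA gene on the opposite strand, and the library kit does not keep the strand. Reads in that stretch therefore cannot be told apart. 4933431E20Rik differed in parallel with Gstm5, by log2 -0.08 (SE 0.33, edgeR adjusted p = 0.957) in LT-HSC and 1.35 (SE 0.20, adjusted p = 0.000411) in MPP. Its MPP means were 7.39 CPM in controls and 19.1 CPM in mutants. Its part in the Gstm5 difference was not tested.

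Gstm1, the other mu-class gene (chr3:108012250-108017973, minus strand), was lower in mutant LT-HSC and overlapped in MPP. LT-HSC controls had 148, 159 and 166 CPM and mutants 143, 85.9 and 108 CPM. The ranges did not overlap, although mutant 1 came close to control 1. The difference was log2 -0.45 (SE 0.17) and was not called. In MPP the controls (75.5, 61.8 and 75.2 CPM) and mutants (57.9, 56.9 and 69.3 CPM) overlapped, with log2 -0.22 (SE 0.12).

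Gsta4 encodes the alpha-class enzyme that conjugates hydroxynonenal, an aldehyde from oxidised lipids (chr9:78191966-78209349, plus strand). LT-HSC controls held 15.9, 13.6 and 18.2 CPM and LT-HSC mutants 8.46, 7.14 and 7.24 CPM. All mutants lay below all controls, and the means of 15.9 ± 2.32 and 7.61 ± 0.735 CPM gave log2 -1.02 (SE 0.21). The difference was not called by edgeR and was called by DESeq2, the only one of 14 alternatives to do so. In this comparison DESeq2 called 280 genes in all, beside 54 for edgeR. In MPP the controls (9.64, 8.65 and 7.44 CPM) and mutants (4.03, 6.60 and 8.34 CPM) overlapped (log2 -0.45, SE 0.25). With Gstm1 and Gsto1, Gsta4 was one of 3 genes whose LT-HSC mutants all lay below the controls, where 9.79% of all genes tested did so.

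The theta-class genes were low, and their groups overlapped between the genotypes. Gstt1 (chr10:75783813-75798584, minus strand), whose enzyme acts on small halogenated compounds, was measured at 2.32, 5.67 and 5.79 CPM in the control LT-HSC libraries and at 1.23, 2.41 and 1.68 CPM in the mutant ones. Control 1 fell within the mutant range, and the log2 difference of -1.32 had an SE of 0.48. In MPP Gstt1 was near the limit of detection, with 4 to 14 expected counts per control library and 5 to 8 per mutant library, and it did not pass the filter. Gstt2 (chr10:75831842-75837419, minus strand) lay between 22.9 and 25.2 CPM in LT-HSC controls, 19.98 and 25.7 CPM in LT-HSC mutants, 14.5 and 15.7 CPM in MPP controls, and 15.1 and 17.2 CPM in MPP mutants. Its genotype differences were log2 -0.01 (SE 0.16) and 0.08 (SE 0.13).

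Gsto1 encodes the omega-class enzyme, which reduces mixed disulfides and dehydroascorbate rather than conjugating (chr19:47854973-47864790, plus strand). It was a little lower in mutant LT-HSC and a little higher in mutant MPP. LT-HSC controls had 173, 174 and 165 CPM and mutants 137, 156 and 135 CPM, a log2 difference of -0.21 (SE 0.11). MPP controls had 171, 179 and 179 CPM and mutants 212, 189 and 209.5 CPM, a log2 difference of 0.19 (SE 0.09). In neither cell type did the groups overlap, and in neither was the gene called.

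Of the membrane-bound enzymes, Mgst1 (chr6:138140527-138156755, plus strand), a conjugating enzyme and peroxidase of the endoplasmic reticulum and mitochondria, overlapped between genotypes. The control LT-HSC libraries had 37.0, 46.3 and 56.6 CPM and the mutant ones 39.9, 25.2 and 29.8 CPM (log2 -0.52, SE 0.22). In MPP the controls ranged from 17.5 to 21.6 CPM and the mutants from 13.4 to 18.0 CPM (log2 -0.36, SE 0.15). Mgst2 (chr3:51636912-51682675, plus strand), which can make leukotriene C, overlapped too, with 4.38 to 6.92 CPM in LT-HSC controls against 4.44 to 5.6 CPM in mutants, and 14.3 to 16.8 CPM in MPP controls against 13.7 to 17.8 CPM in mutants. Its differences were log2 -0.03 (SE 0.30) and -0.06 (SE 0.15).

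**Figure D3:**
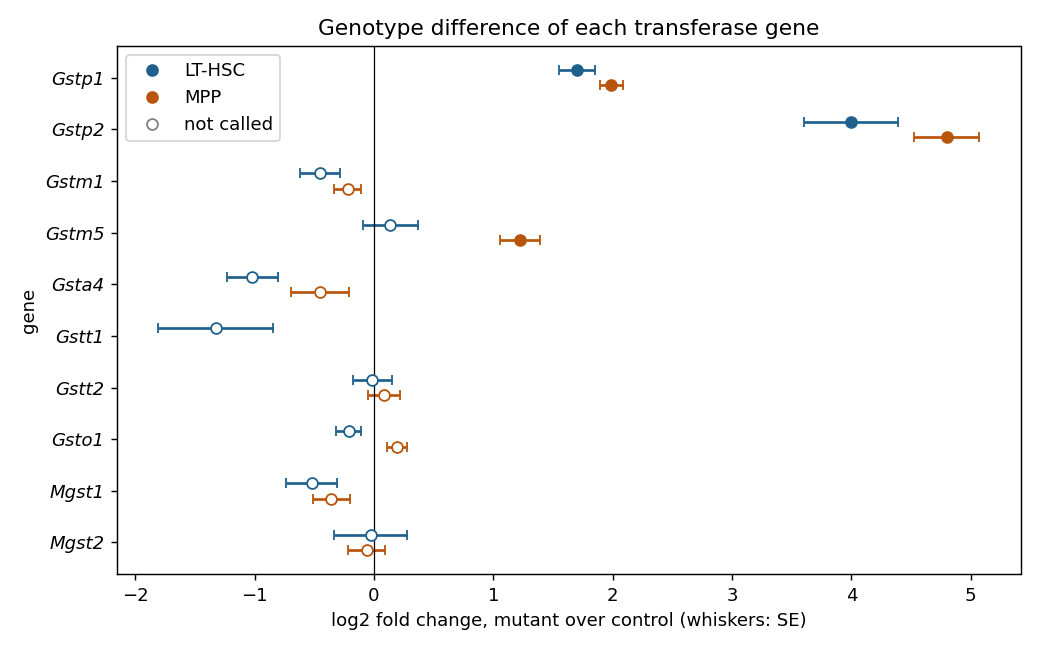
Log2 fold change of mutant over control for each gene in LT-HSC and MPP (points; whiskers: SE), with open points for genes not called. Gstp2 lies farthest right in both cell types (4.0 and 4.8), Gstp1 follows (1.70 and 1.99), and Gstm5 is filled in MPP only; Gstt1 has no MPP point because it did not pass the filter.

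The difference between the genotype effects of the cell types was fitted as an interaction over all 12 libraries, LT-HSC minus MPP. It was called for 0 of the 10 genes, where edgeR called 0.377% of 13249 genes and 12.4% had an unadjusted p under 0.05. The log2 values were -1.15 (SE 0.33) for Gstm5, -0.47 (SE 0.11) for Gsto1, -0.35 (SE 0.19) for Gstp1 and -0.87 (SE 0.52) for Gstp2. DESeq2 called 2 of the 10, Gstm5 and Gsto1, and 341 genes in all, beside 50 for edgeR. Without LT-HSC mutant 3, the mutant with the highest Gstp1, Gstp2 and Gstm5 of its group, edgeR called Gstp1 and Gstm5, and 885 genes in all.

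Between the control groups of the cell types, 6 of the 10 genes were called higher in LT-HSC and 1 lower, where 20.5% of the 12834 genes tested were called higher, 18% lower and 38.5% in all. Cre was carried by 2 of these 3 LT-HSC controls and by 1 of the 3 MPP controls. Gstm1 was at 158 ± 8.98 against 70.8 ± 7.84 CPM (log2 1.16, SE 0.11), and Mgst1 at 46.6 ± 9.77 against 19.5 ± 2.02 CPM (log2 1.26, SE 0.17). Gstt1 showed the widest ratio, 4.60 ± 1.97 against 0.808 ± 0.427 CPM (log2 2.49, SE 0.50). Gsta4 (log2 0.90), Gstm5 (0.69) and Gstt2 (0.68) were the others that were higher.

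Mgst2 was the exception, at 5.30 ± 1.41 CPM in control LT-HSC and 15.6 ± 1.25 CPM in control MPP (log2 -1.55, SE 0.22). The pi-class genes and Gsto1 were not called. Gstp1 was at 211 against 237 CPM (log2 -0.15, SE 0.08), with every LT-HSC control below every MPP control. Gstp2 was at 5.76 against 5.48 CPM (log2 0.08, SE 0.25), and Gsto1 at 171 against 176 CPM (log2 -0.04, SE 0.08), both with overlap.

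Between the mutants of the cell types, 6 of the 10 were called, where 22.8% of 12452 genes were (14.9% higher and 7.98% lower in LT-HSC). Gstm1 (log2 0.92), Gstt1 (1.69), Gstt2 (0.57) and Mgst1 (1.08) were higher in LT-HSC, and Gsto1 (-0.46) and Mgst2 (-1.53) were lower. These comparisons share the control or the mutant libraries with those of genotype. The Gstm5 order was the reverse of that in controls, 80.2 ± 27.2 CPM in LT-HSC against 111 ± 25.2 CPM in MPP, but the mutant groups overlapped and it was not called (log2 -0.41, SE 0.27). The number called dropped to 1, 1 and 2 without MPP mutant 1, 2 or 3, as the calls over all genes dropped from 2845 to 1392, 582 and 603.

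Levels can be set side by side between genes in TPM, a measure that allows for transcript length. Gstp1 was the highest of the 10 in every group, at 649 ± 12.6 TPM in LT-HSC controls, 1992 ± 436 in LT-HSC mutants, 652 ± 31.4 in MPP controls and 2397 ± 208 in MPP mutants. Gsto1 came second in both control groups, at 306 ± 13.6 and 283 ± 10.4 TPM. Gstp2 ranked 9 of 10 in both control groups (17.4 ± 2.88 and 14.9 ± 2.70 TPM) and 2 of 10 in both mutant groups (261 ± 134 and 383 ± 124 TPM). In the mutants its range overlapped that of Gsto1, the next in order (248 ± 12.5 and 300.2 ± 27.6 TPM). Gstt1 was the lowest in every group, from 9.34 ± 3.86 TPM in LT-HSC controls to 0.937 ± 0.165 TPM in MPP mutants.

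Other neighbours in this order were not separated either. In LT-HSC controls the ranges of Gstt2 (36 TPM) and Gsta4 (35.7 TPM) overlapped, as did those of Mgst2 (22.1 TPM) and Gstp2. In MPP controls, Gstm5 and Gstm1 overlapped at 100.3 and 100.2 TPM, as did Gstt2 with Gsta4 and Gsta4 with Gstp2. In LT-HSC mutants Gstm5 (186 TPM) overlapped both Gsto1 above it and Gstm1 (174 TPM) below it, and Mgst2 (20.4 TPM) overlapped Gsta4 (16.6 TPM).

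The 10 genes together reached 1611 ± 22 TPM in LT-HSC controls and 3006 ± 624 TPM in LT-HSC mutants, and 1288 ± 44.8 and 3490 ± 355 TPM in MPP controls and mutants. The pi class carried this difference. The other 8 genes summed to 945 ± 32.3 and 753 ± 93.8 TPM in LT-HSC, with every mutant below every control. In MPP they summed to 621 ± 10.8 and 710 ± 44.7 TPM, with every mutant above every control. Gstp1 alone made up 38.8% to 41.3% of the sum in LT-HSC controls, 49.9% to 51.3% in MPP controls, and 65.4% to 70.3% in the mutants of both.

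Genes whose pattern most resembled that of Gstp1 were sought over the 12 libraries, as the smallest root mean square difference in log2 CPM centred per gene, among 13131 genes. The closest were Slc16a3, a lactate and proton carrier (difference 0.25, beside a range of 2.34 for Gstp1 itself), Smarca5-ps (0.25), 1700001L05Rik (0.29), Dzip1 (0.33) and Nfxl1 (0.33). Slc16a3 averaged 48.9 and 120.2 CPM in LT-HSC controls and mutants and 48.4 and 169 CPM in MPP controls and mutants. The likeness is a description of these libraries, which all share the same 4 groups.

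No tested gene described here around the pi-class pair differed between the genotypes by as much as either of the pair. Within 100 kb of Gstp1 14 genes of the tables are described, of which 9 were tested. In LT-HSC Gstp2 was the only one called. In MPP, besides Gstp2, Ndufv1, a subunit of respiratory complex I, rose slightly (log2 0.29, SE 0.09, edgeR adjusted p = 0.0278), and 2 genes fell. Unc93b1, which escorts Toll-like receptors to endosomes, changed by log2 -1.21 (adjusted p = 2.16e-05), and Pitpnm1, a lipid transfer protein, by -0.63 (adjusted p = 0.0150; both edgeR).

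The third pi-class gene, Gstp3, is listed in the tables as BC021614 and lies at chr19:4057470-4059605 on the minus strand, 15249 bases from Gstp2. Its mean was low, 3.13 CPM in control and 2.19 CPM in mutant LT-HSC, and 2.40 CPM in control and 4.06 CPM in mutant MPP. It did not pass the test in either cell type (log2 -0.47, SE 0.38, and 0.74, SE 0.27; edgeR adjusted p = 0.748 and 0.0541). In the mu-class cluster, Gstm7, next to Gstm5 among the genes tested on that side, fell in MPP (log2 -0.91, SE 0.24, adjusted p = 0.0141) where Gstm5 was higher, and Gstm4, near Gstm1, was at -0.31 (adjusted p = 0.131).

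**Figure D4:**
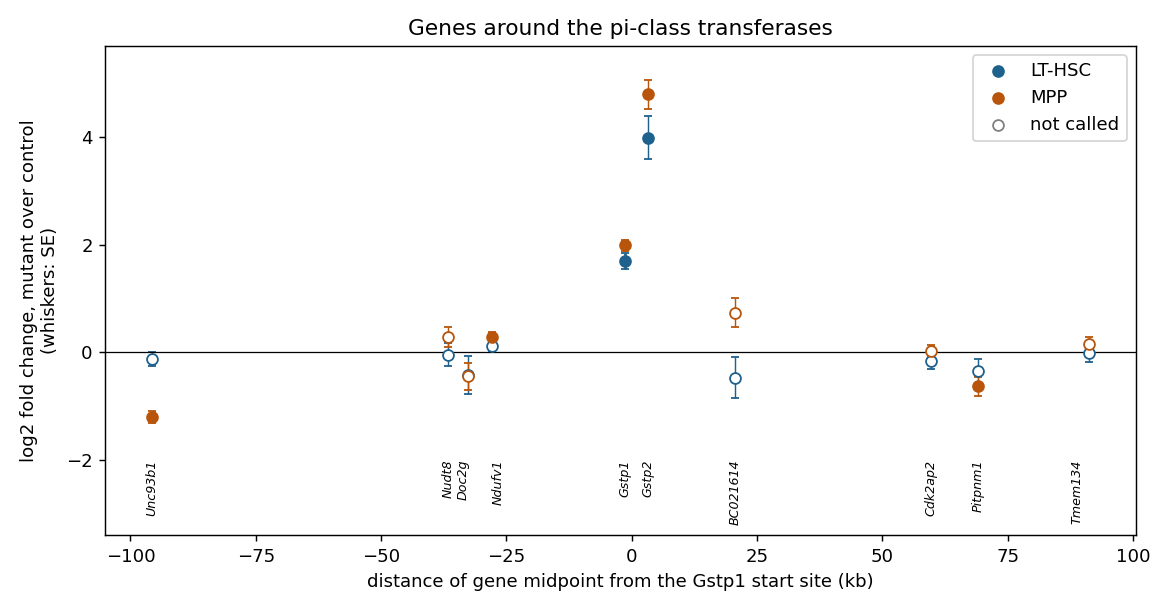
Log2 fold change of mutant over control (points; whiskers: SE) of the tested genes described within 100 kb of Gstp1, against the distance of each gene's midpoint from the Gstp1 start site in kb, with open points for genes not called. Gstp1 and Gstp2 are the only genes above 1, and BC021614 (Gstp3) lies at -0.47 and 0.74.

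The remaining genes of glutathione metabolism were followed through lists. In LT-HSC, edgeR called 0 genes in each of the 7 lists. Tested were 13 other transferases and relatives, 6 of glutathione synthesis, 7 of its recycling and breakdown and 14 glutathione-using peroxidases and related enzymes. Also tested were 4 exporters, 8 NRF2 regulators and 16 further NRF2 targets. At an unadjusted p under 0.05 the numbers were 2, 0, 2, 1, 1, 0 and 1 in that order, where 9.5% of all genes tested were. Of all genes, 0.42% were called. Median log2 changes lay between -0.11 and 0.12, beside 0.03 over all genes tested.

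In MPP, where 35% of all genes were called, the lists moved in both directions. Of 6 tested genes of glutathione synthesis, 3 rose and 1 fell (median log2 0.41, beside -0.01 over all genes). Gclm and Gclc, the subunits of the rate-limiting glutamate-cysteine ligase, rose by log2 1.49 (SE 0.20, edgeR adjusted p = 0.000204) and 0.63 (SE 0.15, adjusted p = 0.00846). Gss, glutathione synthetase, rose by 0.65 (adjusted p = 0.00271). Cbs, which feeds homocysteine towards cysteine, changed by -1.67 (adjusted p = 0.00844) from a low level of 1.51 ± 0.442 CPM in controls. In recycling and breakdown, 2 of 7 rose and 2 fell (median 0.24). Gsr, which reduces oxidised glutathione, rose by 0.84 (edgeR adjusted p = 0.00128), and Chac2, which degrades glutathione, by 1.12 (adjusted p = 0.000366). Oplah changed by -1.42 (adjusted p = 0.0104) and Ggt5 by -1.0 (adjusted p = 0.0224; all edgeR).

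Among 12 tested peroxidases and other glutathione-using enzymes, 5 rose and 2 fell in MPP (median 0.11). Glo1, which detoxifies methylglyoxal, rose from 206 ± 13.9 to 402 ± 64.5 CPM (log2 0.95, edgeR adjusted p = 0.000125), and Glrx5, a mitochondrial glutaredoxin of iron-sulfur assembly, by log2 1.25 (adjusted p = 0.000285). Gpx3, the secreted peroxidase, and Glrx changed by -1.49 (adjusted p = 8.67e-05) and -0.56 (adjusted p = 0.00186). Of 4 exporters 1 rose, Abcc4 (0.65, adjusted p = 0.00269), and 1 fell, Abcc3 (-2.62, adjusted p = 5.19e-05), with a median of 2.33e-05. Of 11 tested genes on the list of other transferases and relatives, 1 rose and 4 fell (median -0.24). Mgst3, the third membrane-bound enzyme, rose from 67.0 ± 6.28 to 138 ± 28.9 CPM (log2 1.03, adjusted p = 0.000272). Gstk1 (-0.74, adjusted p = 0.00911), Hpgds (-0.66, adjusted p = 0.0130), Alox5ap (-0.43, adjusted p = 0.00536) and Gstm7 fell.

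None of the 8 NRF2 regulators was called in MPP by edgeR, and none had an unadjusted p under 0.05 (median 0.03), where 45.4% of all genes tested did. Nfe2l2, which encodes NRF2, was at 107 ± 17.8 and 111 ± 3.90 CPM in MPP controls and mutants, and its repressor partner gene Keap1 at 94.8 ± 13.9 and 97.8 ± 9.53 CPM. Of 16 further NRF2 targets 2 rose and 3 fell (median 0.05). Nqo1, a quinone reductase, rose by log2 1.31 (edgeR adjusted p = 0.00150) and Fth1, ferritin heavy chain, by 0.67 (adjusted p = 0.000973), whereas Ephx1, an epoxide hydrolase, changed by -2.01 (adjusted p = 0.000771) and Hmox1, haem oxygenase, by -1.48 (adjusted p = 0.000447). Osgin1 was the third that fell. All 22 genes named from these lists by the rule stayed on the same side of 0 under 14 alternatives, and none was called against the single MPP control with Cre, where 125 of 12392 genes were called in all, beside 4337 against the 3 controls. The joint fit of 12 libraries did not call Gclm, Gclc, Gsr, Ggt5, Glrx5, Gpx3, Hmox1 and Hpgds, and called 2792 genes in all. Ggt5 was also not called without MPP control 1, control 2, mutant 2 or mutant 3, Hpgds without mutant 2 or 3, and Oplah without mutant 2.

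**Figure D5:**
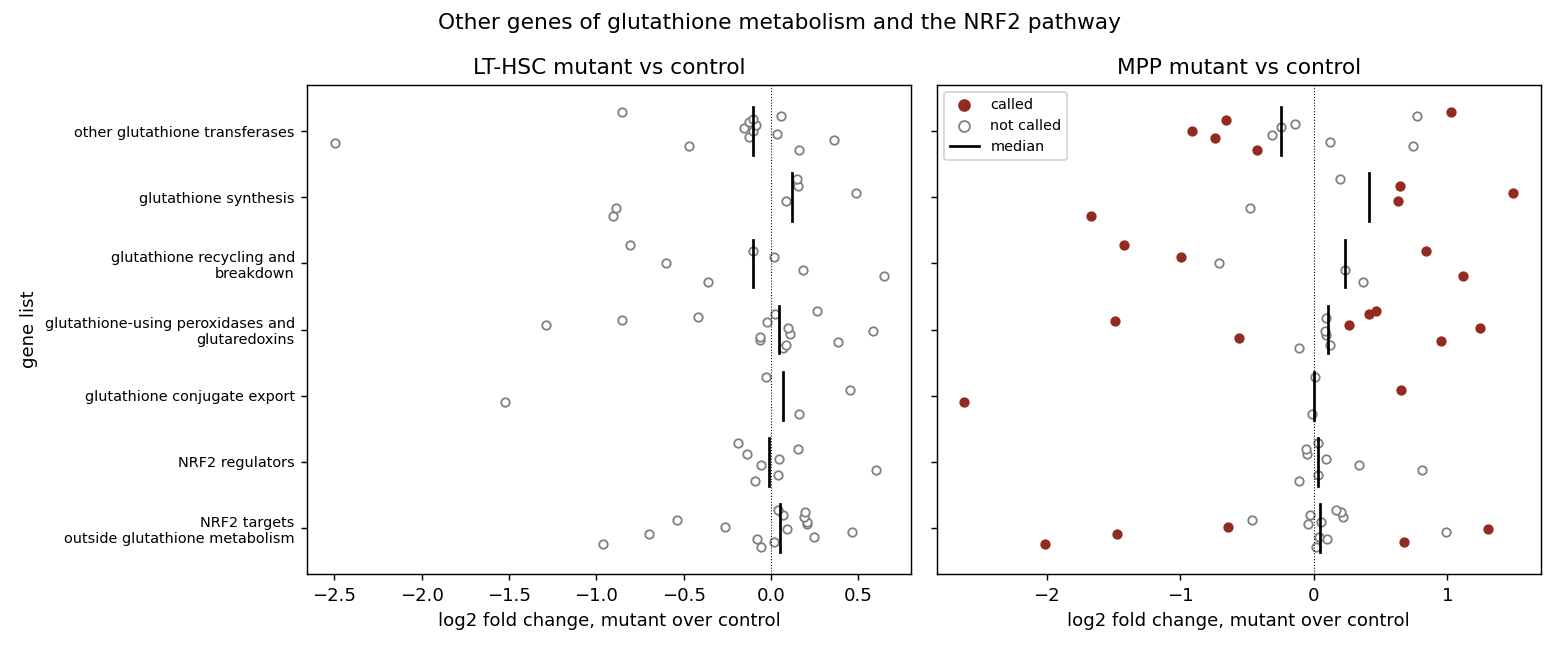
Log2 fold change of mutant over control for every tested gene of the 7 lists (points; filled where called; line: median) in LT-HSC and MPP, on separate scales. No point is filled in LT-HSC, and in MPP filled points lie on both sides of 0 in every list except the NRF2 regulators.

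Markers of other cells moved with the genotype, and in bulk RNA fewer cells of a type and less RNA per cell cannot be told apart. In MPP, 16 of 20 tested red cell markers rose, and the sum of the list was 2057 to 3785 CPM in controls and 6299 to 9591 CPM in mutants. Hbb-bt and Hbb-b2 had identical values in every group (means of 216 and 331 CPM in MPP controls and mutants), yet both are counted and summed. In LT-HSC the sum of the list overlapped, 4014 to 7051 CPM in controls and 4168 to 7028 CPM in mutants, with 1 of 20 called. That marker was Car1, carbonic anhydrase 1, named after its value was seen, which rose from 7.90 ± 2.03 to 793 ± 496 CPM (log2 6.70, SE 0.53, edgeR adjusted p = 0.00201), and in MPP from 9.85 ± 0.318 to 1506 ± 369 CPM (log2 7.24, adjusted p = 2.07e-09). The red cell sums of mutants 1 to 3 were 4966, 4168 and 7028 CPM in LT-HSC and 6299, 9591 and 8681 CPM in MPP. Within each cell type that was the order of their Gstp1 levels, and the LT-HSC controls kept such an order too. The MPP controls did not: control 3 had the highest red cell sum (3785 CPM) and the lowest Gstp1 (226 CPM). All these red cell sums include Car1, with the rise given above, and the orders without it were not tested. Gstp2 followed the sums in MPP mutants but not in LT-HSC mutants (52.6, 74.6 and 139.8 CPM). In MPP, 16 of 17 macrophage markers fell, their sum being 1744 to 2462 CPM in controls and 463 to 639.9 CPM in mutants. Hmox1 is a member of that list too. So is Lyz2, also a granulocyte and monocyte marker and a large part of the sum. Lyz2 averaged 998 and 262 CPM in MPP controls and mutants, but 422 and 468 CPM in LT-HSC controls and mutants. No gene of either list was at 0 in all libraries of a group. In LT-HSC the macrophage sum ran from 1675 to 2204 CPM in controls and from 624 to 2131 CPM in mutants. The part of either list in the values of Gstp1, Gstp2, Gstm5 and the glutathione genes was not tested.

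Hepatoblast markers moved alongside the transferases that were lower in mutant LT-HSC. Their sum was 564 to 1953 CPM in LT-HSC controls and 66.9 to 507 CPM in LT-HSC mutants, with 0 of 19 called and 11 at an unadjusted p under 0.05 (edgeR), and 279 to 616 against 97.5 to 137 CPM in MPP, with 9 of 17 lower. Of 19 tested in the controls of the cell types, 18 were higher in LT-HSC and 1, Hnf4a, was lower (13.7 ± 1.33 against 47.7 ± 6.99 CPM). LT-HSC control 1 had the lowest hepatoblast sum and the lowest Gstt1, Mgst1 and Gstm1 of its group, but not the lowest Gsta4 or Gsto1. That library was also the only LT-HSC control without Cre, and the part of its genotype in these values cannot be told apart. Among the LT-HSC mutants, mutant 2 had the highest hepatoblast sum (507 CPM) and the highest Gstt1 and Gsto1. The same library had the lowest Gstm1, Mgst1 and Gsta4. Of the list, only Apoc3 was at 0, in every group except LT-HSC controls. The summed granulocyte and monocyte markers, like Mgst2, were higher in MPP, with 3197 to 4076 CPM in MPP controls against 729.6 to 1938 CPM in LT-HSC controls and none at 0. Of the 12 tested, 4 were called, all higher in MPP, and 8 were not. Mpo (359.7 ± 386 against 2175 ± 247 CPM) and Lyz2 (422 ± 53.5 against 998 ± 257 CPM) were among the 4. The part of these markers in the values of Gsta4, Gstm1, Gstt1, Mgst1 and Mgst2 was not tested.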

How the data were processed

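The 12 RNA-seq libraries were built with a low-input kit (10 ng RNA) that keeps no strand, per the labels' protocols. Per the submitters' processing notes, STAR and RSEM were used on mm10, without versions or settings. The deposited tables, 1 per library, hold RSEM's expected counts (estimates that share reads between genes), TPM and FPKM per gene, per the file headers, and 7.13% to 7.76% of the count values were fractional.

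Groups and replicate numbers came from titles and genotype labels. The 10 genes, the lists and the tests were chosen with earlier results of these data known. Expected counts were rounded and tested with edgeR 4.0.16 (R 4.3.3; quasi-likelihood, TMM scaling, filterByExpr with minimum count 10 and minimum total 15), with Benjamini-Hochberg adjustment over all genes tested and a threshold of 0.05. The test was checked on simulated data. Genotype was tested within LT-HSC and within MPP (6 libraries each), cell type within controls and within mutants, and the interaction over 12 libraries. CPM used TMM-scaled totals, with a prior count of 2 on the log2 scale. Named genes were the 10, Setdb1, up to 4 called genes with the smallest p per list and genotype comparison, and the 5 genes most like Gstp1; neighbours within 100 kb, and other list genes, were named after their values were seen. One of the neighbours is not reported here. Coordinates are those of RefSeq (GRCm38.p6), to which 23766 genes were matched by transcript accession, and strands and coding windows come from GENCODE M21.

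No pair of replicates agreed within sampling noise. Replicate numbers come from the titles, and no label says what they stand for. In LT-HSC, the deviations of a control and a mutant with the same number from their groups' means correlated across genes (r = 0.11, 0.17 and 0.19), over 0.1 for every pair, and the numbers were taken to pair them. Some deposited tables, LT-HSC ones included, carry other replicate numbers in their names than in the titles, so this pairing is uncertain. The replicate block left the calls of the 10 genes there as they were. Alternatives were other scalings, DESeq2 1.42.0, no filter, the block, joint fits, only Cre-positive controls, Gstp1 and Gstp2 summed, FPKM for TPM, and leaving out each library.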

Additional observations from a re-analysis of the deposited data

Results flagged for a closer look

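Gsto1, the omega-class transferase, differed in opposite directions between the cell types: all 3 LT-HSC mutants lay below all 3 LT-HSC controls, and all 3 MPP mutants above all 3 MPP controls. The genotype effect in LT-HSC minus that in MPP was log2 -0.47 (SE 0.11). In the interaction over 12 libraries edgeR did not call it, and DESeq2 did. The LT-HSC means were 171 ± 4.90 and 143 ± 11.7 CPM in controls and mutants, and the MPP means 176 ± 4.64 and 203 ± 12.9 CPM (SD, n = 3). In TPM the LT-HSC groups stayed apart, but the MPP controls (271 to 290.4 TPM) and mutants (270.4 to 325 TPM) overlapped.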

How the results depend on the processing

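No log2 fold change of the 10 genes that was called changed sign under any alternative run. In LT-HSC, Gstp1 ranged from 1.52 to 1.84 and Gstp2 from 3.51 to 4.26. In MPP Gstp1 ranged from 1.92 to 2.17, Gstp2 from 4.65 to 5.08 and Gstm5 from 1.11 to 1.47. The upper ends for Gstp1, 1.84 and 2.17, are those of Gstp1 and Gstp2 summed, not of Gstp1 alone. The number called in LT-HSC was 2, or 1 when Gstp1 and Gstp2 were summed into 1 feature. It was 0 to 2 when 1 library was left out, with fewer samples tested. DESeq2 called Gsta4 in LT-HSC besides Gstp1 and Gstp2, and 280 genes in all, beside 54 for edgeR. Between the mutants of the cell types the number called of the 10 was 6, and 1 to 8 when 1 library was left out. The interaction called 0 of 10, or 2 with DESeq2 (the cause was not tested), and 0 to 2 when 1 library was left out. The number called in MPP (3) and between the controls (7) stayed within 1.5 times under every alternative. With the replicate block the counts were 2 in LT-HSC, 3 in MPP, 7 between controls, 5 between mutants and 0 in the interaction. Between mutants the block lost Gstt1 and Gstt2 and gained Gstp2. Outside the LT-HSC genotype comparison, same-numbered samples did not deviate together in every pair (r in MPP -0.07, -0.18 and -0.12), so they share only a number. In MPP, upper-quartile scaling moved the calls over all genes from 2039 higher and 2298 lower to 1627 higher and 2719 lower. Only 1 MPP control carried Cre, and in the joint fit against it Gstm5 was no longer called, while Gstp1 and Gstp2 were (log2 2.02 and 5.08). The joint fit of all 12 libraries also lost the MPP calls of Gclc, Gclm, Ggt5, Glrx5, Gpx3, Gsr, Hmox1 and Hpgds, and DESeq2 that of Cbs; the cause was not tested. Gstt1 had too few counts in MPP for a test.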
